A study of Mus musculus with 26 samples.

Results

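Expression of 10 genes that write, maintain and erase DNA methylation was examined in mouse embryonic fibroblasts (MEFs), fetal heart and fetal liver. The genes were taken by symbol from a deposited expression table of 52454 gene symbols, and all 10 were found. They are *Dnmt3a*, *Dnmt3b* and *Dnmt3l* for de novo methylation, *Dnmt1* and *Uhrf1* for maintenance with the related *Uhrf2*, and *Tet1*, *Tet2*, *Tet3* and *Tdg* for removal. Expression is given as FPKM, the number of fragments scaled to transcript length and library size, which is a level per length and can be set side by side between genes. Of the 10 genes, 6 reached 1 FPKM in every library, 3 reached it in some libraries, and *Dnmt3l* stayed below it in all 10.

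Methyl groups are placed on unmethylated CpG sites by DNMT3A and DNMT3B, and DNMT3L is a relative without catalytic activity that stimulates them. When DNA is replicated, UHRF1 recognises CpG sites with a methyl group on the old strand alone and recruits DNMT1, which copies the mark to the new strand. The TET enzymes oxidise 5-methylcytosine, and TDG excises the most oxidised forms so that base excision repair can put back an unmethylated cytosine. DNMT3A and the TET enzymes are known for roles in differentiating tissue, whereas DNMT1 and UHRF1 are known for their need in dividing cells.

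RNA-seq was available as 10 libraries, 1 per condition, from a study of the sites that each DNMT3 enzyme methylates during development. 2i-MEFs are fibroblasts from chimeric E14.5 embryos made with ES cells that had been kept in 2i/L medium and lack most DNA methylation. There were 2 such libraries, *Dnmt3a* KO and *Dnmt3b* KO, both female with an F1 background of 129X1/SvJ and MSM/Ms. Each KO was made with CRISPR/Cas9 in ES cells that were grown as a line. To remove host cells, the fibroblasts were selected with an antibiotic and then sorted for a GFP label carried by the ES cells. The other 4 fibroblast libraries were passage 1 MEFs from E14.5 embryos, male and labelled C57BL6, either WT or *Dnmt3a* KO, given DMSO or 10 uM GSK126 for 2 days. GSK126 inhibits EZH2, the enzyme that places the Polycomb mark on histone H3. The 4 tissue libraries were E14.5 heart and liver, male and labelled C57BL6, from WT and *Dnmt3a* KO embryos of crosses between carriers of a germline null allele. Within each genotype, heart and liver carry the same embryo number. Whether the MEFs came from 1 embryo or a pool is not given in the sources used here, and WT 2i-MEFs were not analysed here.

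Each condition has 1 library, so differences between conditions carry no p-value. Pairs of libraries were compared by the log2 ratio of FPKM + 1, and a gene was counted as apart where this ratio reached 2-fold. The depth was recovered from the steps of low FPKM values, which are worth 1 read each, and ran from 9185441 reads in the *Dnmt3b* KO 2i-MEFs to 26199922 reads in WT liver. Because 1 FPKM value covers all transcripts of a gene, its reads were bounded by assuming the shortest or the longest coding transcript throughout, and 95% Poisson intervals of ratios use the fewest reads and cover counting error only. The median of 9 fibroblast markers was between 176 and 770 FPKM in the fibroblasts and at most 72.3 FPKM in the tissues. The median of 8 cardiomyocyte markers was 3934 and 3907 FPKM in the hearts and at most 5.80 FPKM elsewhere, and that of 7 hepatocyte markers was 878 and 745 FPKM in the livers and at most 3.89 FPKM elsewhere. In the fibroblasts the 7 pluripotency markers summed to at most 1.24 FPKM, with *Pou5f1* and *Zfp42* at 0. Erythroid markers were present in heart too, where the globins *Hbb-y* and *Hba-a1* carried most of a sum of 39102 FPKM in WT and 38803 FPKM in the KO-labelled library. Their medians were 31.0 and 16.9 FPKM in heart against 664 and 775 FPKM in liver. The 5 macrophage markers summed to between 186 and 282 FPKM in the MEFs and to 2.46 and 3.53 FPKM in the 2i-MEFs. The tissues are mixtures of cells, so fewer cells of a type and less RNA per cell cannot be told apart.

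The start regions of *Uhrf1*, *Dnmt1* and *Dnmt3b* are shown first, because these 3 genes were at least 2-fold lower in heart than in liver in both embryos, as were 15.4% of expressed genes. Each line holds the 200 bases before a transcription start listed by RefSeq on GRCm38.p6 (mm10), in the direction of the gene. Capitals mark matches on either strand of the CCAAT box (CCAAT), the GC box (GGGCGG) and an E2F-type motif (TTTNGCGC). Starts whose upstream bases lie mostly in exons are not shown.
*Uhrf1*, upstream start, chr17:56303137-56303336, plus strand: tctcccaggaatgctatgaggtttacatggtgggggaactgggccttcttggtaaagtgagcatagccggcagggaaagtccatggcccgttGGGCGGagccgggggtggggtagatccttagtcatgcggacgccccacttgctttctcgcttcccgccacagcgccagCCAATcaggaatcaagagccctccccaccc
*Uhrf1*, downstream start, chr17:56304113-56304312, plus strand: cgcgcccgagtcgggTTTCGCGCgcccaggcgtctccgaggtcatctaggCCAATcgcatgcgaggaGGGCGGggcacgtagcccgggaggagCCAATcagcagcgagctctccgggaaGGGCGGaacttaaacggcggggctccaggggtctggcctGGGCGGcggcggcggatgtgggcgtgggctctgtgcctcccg
*Dnmt1*, upstream start, chr9:20959889-20960088, minus strand: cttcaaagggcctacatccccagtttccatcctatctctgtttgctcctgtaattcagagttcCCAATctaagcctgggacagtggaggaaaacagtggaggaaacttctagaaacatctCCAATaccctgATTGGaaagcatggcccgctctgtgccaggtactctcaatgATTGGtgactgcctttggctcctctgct
*Dnmt1*, middle start, chr9:20952980-20953179, minus strand: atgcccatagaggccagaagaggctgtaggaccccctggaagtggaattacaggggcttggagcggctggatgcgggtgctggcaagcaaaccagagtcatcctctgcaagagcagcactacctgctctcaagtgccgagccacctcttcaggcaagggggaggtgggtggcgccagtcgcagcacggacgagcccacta
*Dnmt3b*, the listed start, chr2:153649249-153649448, plus strand: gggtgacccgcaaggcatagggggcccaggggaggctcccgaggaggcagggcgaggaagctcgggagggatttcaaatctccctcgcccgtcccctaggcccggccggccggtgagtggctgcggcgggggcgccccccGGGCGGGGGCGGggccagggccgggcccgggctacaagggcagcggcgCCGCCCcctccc

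The downstream *Uhrf1* region held all 3 motifs, with 1 E2F-type match, 2 CCAAT boxes and 3 GC boxes among 25 CpG sites. The E2F-type motif was present in 0.954% of the 32809 start regions of this length, the CCAAT box in 29.3% and the GC box in 31.0%. The upstream *Uhrf1* region held 1 CCAAT box, 1 GC box and 9 CpG sites. The upstream *Dnmt1* region held 4 CCAAT boxes, no GC box and a single CpG site, and the middle one held none of the motifs and 7 CpG sites. The third *Dnmt1* region, not shown because 116 of its 200 bases are exonic, held 1 CCAAT box, 1 GC box and 18 CpG sites. The *Dnmt3b* region held 3 GC boxes and 20 CpG sites, against a median of 5 CpG sites over all regions, and had neither of the other motifs. In these regions no match shared a base with a match of another motif. The files give 1 value per gene, so which start was used in which library is not visible, and a match is a description of letters only.

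*Dnmt3a*, the gene named in the knockout labels, did not follow them in every tissue. It lies at chr12:3806007-3914443 on the plus strand and has 18 annotated transcripts, 13 of them coding. It shares 133 exonic bases with *Dnmt3aos* on the opposite strand, and whether the counting used the strand is not given in the sources used here. In the 2i-MEFs the level of *Dnmt3a* was 4.21 FPKM in its own knockout and 23.9 FPKM in the *Dnmt3b* knockout. WT MEFs gave 26.1 FPKM with DMSO and 19.3 FPKM with GSK126, but KO-labelled MEFs gave 85.7 and 84.5 FPKM. The level was 55.0 FPKM in WT heart and 125 FPKM in KO-labelled heart, whereas it was 53.5 FPKM in WT liver and 12.7 FPKM in KO-labelled liver. The gene was thus lower under its own KO label in 2i-MEFs and liver and higher under it in MEFs and heart. The null allele's deleted bases are not visible in a value over the whole gene, so these values do not check which allele a library carried, and the MEF and tissue libraries are called KO-labelled throughout. Across libraries the level spanned 29.7-fold, from the *Dnmt3a* KO 2i-MEFs to KO-labelled heart. Reads behind it could not be narrowed, since coding transcripts range from 467 to 9685 bases; they came to between 12 and 437 in the *Dnmt3a* KO 2i-MEFs.

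*Dnmt3b* (chr2:153649450-153687730, plus strand), the other de novo enzyme, was low outside the liver. It was at 7.34 FPKM in WT liver and 5.99 FPKM in KO-labelled liver, and at 1.22 FPKM in each of the hearts. Among fibroblasts it was at 1.81 FPKM in *Dnmt3a* KO 2i-MEFs and at 0.817 FPKM in *Dnmt3b* KO 2i-MEFs, which is the library whose label names it. With DMSO, WT MEFs gave 0.400 FPKM and KO-labelled MEFs 0.964 FPKM, and with GSK126 they gave 0.413 and 0.315 FPKM. Both livers were above every other library. Of the 9 steps between neighbours in the order of its levels, 5 lay within counting error, among them the steps between the hearts, between KO-labelled heart and KO-labelled MEFs with DMSO, and between the MEF values of WT with DMSO and with GSK126. *Dnmt3a* exceeded *Dnmt3b* in all 10 libraries, by 2.12-fold in KO-labelled liver and by 268-fold in KO-labelled MEFs with GSK126. *Dnmt3b* made up 30.0% of the summed FPKM of both genes in *Dnmt3a* KO 2i-MEFs and 32.0% in KO-labelled liver, 12.1% in WT liver and at most 3.30% in the other 7 libraries.

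*Dnmt3l* (chr10:78041947-78063622, plus strand), the cofactor, was close to the limit of detection. It was listed at 0 in both 2i-MEF libraries, in WT heart and in both livers. It reached 0.535 FPKM in WT MEFs with DMSO, 0.375 FPKM in KO-labelled MEFs with DMSO, and 0.0566 and 0.104 FPKM in the corresponding libraries with GSK126. In KO-labelled heart it was at 0.312 FPKM, from 4 to 8 reads. The MEFs with DMSO rest on 9 to 16 reads each, and the WT MEFs with GSK126 on 1 to 2. None of the 9 steps between neighbouring levels exceeded counting error. A listed 0 allows up to 3 reads. *Dnmt3l* overlaps *Aire* on the opposite strand over 67 exonic bases, and whether the strand was used in the counting is not given in the sources used here.

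**Figure D1:**
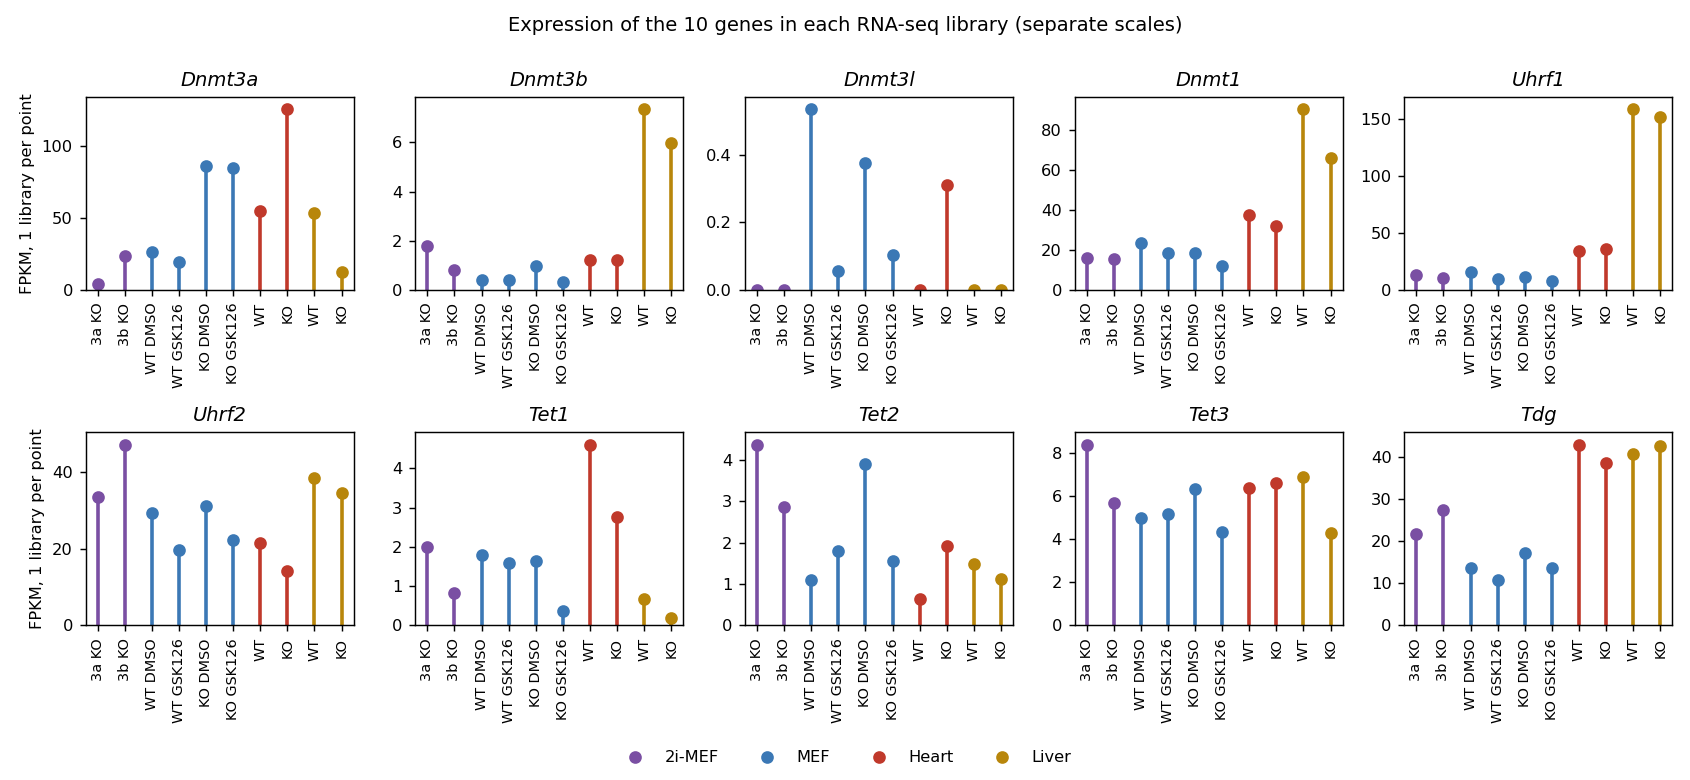
FPKM of each gene (vertical axes, linear, from 0, a separate scale per gene) in each of the 10 libraries (horizontal axis, colored by fibroblast type or tissue, KO for libraries labelled *Dnmt3a* KO). *Dnmt1* and *Uhrf1* peak in both livers, *Tet1* in both hearts, and *Dnmt3a* is higher in the KO-labelled library of MEFs and heart and lower in that of liver.

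*Dnmt1* (chr9:20907209-20959888, minus strand), the maintenance enzyme, was expressed in every library and was highest in liver. It was at 90.4 FPKM in WT liver, 66.2 FPKM in KO-labelled liver, 37.3 FPKM in WT heart and 32.1 FPKM in KO-labelled heart. With DMSO, WT MEFs gave 23.5 FPKM and KO-labelled MEFs 18.5 FPKM, and with GSK126 they gave 18.5 and 12.3 FPKM. The 2i-MEFs were at 16.2 and 15.5 FPKM. All 4 tissue libraries lay above all 6 fibroblast libraries. At coding transcript lengths, *Dnmt1* had between 717 and 13434 reads across the libraries. Of the 9 steps between neighbouring levels, 7 exceeded counting error. Those between the 2i-MEFs and between WT MEFs with GSK126 and KO-labelled MEFs with DMSO did not.

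*Uhrf1* (chr17:56303321-56323486, plus strand), which guides DNMT1 to newly replicated DNA, had a wider range, 20.8-fold against 7.37-fold for *Dnmt1*. It was at 158 FPKM in WT liver and 152 FPKM in KO-labelled liver, and at 34.5 and 36.2 FPKM in the hearts. WT MEFs gave 15.9 FPKM with DMSO and 9.50 FPKM with GSK126, and KO-labelled MEFs 11.5 and 7.60 FPKM. The 2i-MEFs lay among these, with 13.3 FPKM after *Dnmt3a* and 10.6 FPKM after *Dnmt3b* knockout. *Dnmt1* was above *Uhrf1* in every fibroblast library, by between 1.22-fold and 1.95-fold, whereas *Uhrf1* was above *Dnmt1* in both livers, where the ratio of *Dnmt1* to *Uhrf1* was 0.571 and 0.437. The ratio was 1.08 in WT heart and 0.886 in KO-labelled heart. For *Uhrf1*, 7 of the 9 steps between neighbouring levels lay within counting error with the fewest reads and 3 with the most.

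*Uhrf2* (chr19:30030513-30093722, plus strand), a relative of *Uhrf1* that does not replace it in maintenance, did not share this pattern. Its level was 33.5 FPKM in *Dnmt3a* KO 2i-MEFs and 47.1 FPKM in *Dnmt3b* KO 2i-MEFs, and 38.3 and 34.6 FPKM in the livers. With DMSO, WT MEFs gave 29.3 FPKM and KO-labelled MEFs 31.0 FPKM, and with GSK126 they gave 19.7 and 22.3 FPKM. WT heart gave 21.6 FPKM and KO-labelled heart 14.3 FPKM, the lowest level of the 10 libraries. *Uhrf2* exceeded *Uhrf1* in all 6 fibroblast libraries, by between 1.85-fold and 4.42-fold, and was below it in all 4 tissue libraries, with ratios between 0.228 and 0.625. At the length of its only coding transcript, *Uhrf2* had 735 reads or more in each library. Reads on its shorter non-coding transcripts would lower this estimate.

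The median level of 14 proliferation markers moved with *Dnmt1* and *Uhrf1*. This median was between 17.5 and 29.0 FPKM in the fibroblasts, 89.4 and 80.8 FPKM in the hearts, and 263 and 259 FPKM in the livers. Per unit of this median, *Uhrf1* was between 0.386 and 0.602 in all 10 libraries. *Dnmt1* was between 0.659 and 0.919 in the fibroblasts, at 0.418 and 0.397 in the hearts and at 0.344 and 0.256 in the livers. The range of *Uhrf1* thus narrowed from 20.8-fold to less than 2-fold on this scale, while *Dnmt1* stood lower in tissue than in fibroblasts on it. *Uhrf2* per unit of the median ran from 0.134 in KO-labelled liver to 2.00 in *Dnmt3b* KO 2i-MEFs. Whether cell division accounts for any of these levels was not tested.

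**Figure D2:**
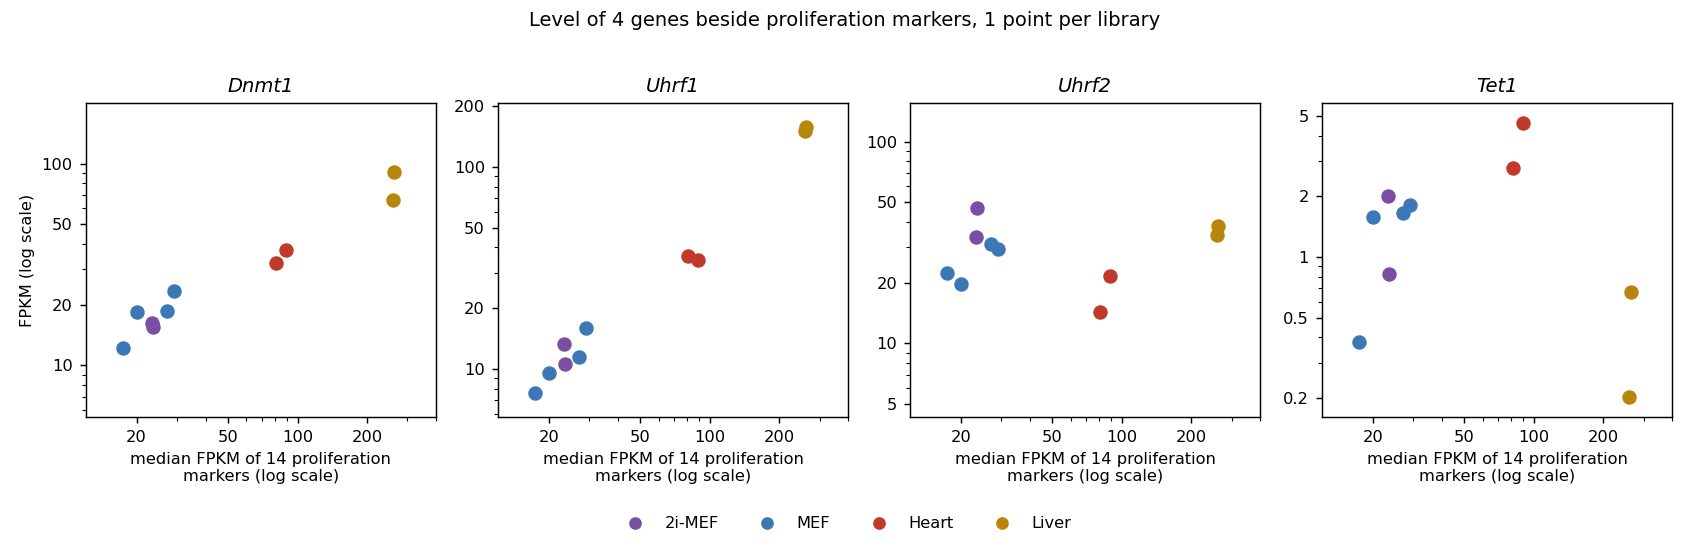
Level of *Dnmt1*, *Uhrf1*, *Uhrf2* and *Tet1* (FPKM, log scale, spanning the same number of decades in each panel) against the median FPKM of 14 proliferation markers (log scale), 1 point per library, colored by fibroblast type or tissue. Points of *Dnmt1* and *Uhrf1* run from fibroblasts through heart to liver, whereas *Uhrf2* does not, and *Tet1* is highest in heart at 4.60 and 2.76 FPKM.

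*Tet1* (chr10:62804570-62908996, minus strand) separated the hearts from the livers. It was at 4.60 FPKM in WT heart and 2.76 FPKM in KO-labelled heart, against 0.673 and 0.203 FPKM in the corresponding livers. *Dnmt3a* KO 2i-MEFs gave 2.00 FPKM and *Dnmt3b* KO 2i-MEFs 0.823 FPKM. WT MEFs gave 1.81 FPKM with DMSO and 1.58 FPKM with GSK126, and KO-labelled MEFs 1.65 and 0.379 FPKM. The hearts were the highest of the 10 libraries. Coding transcripts of *Tet1* range from 361 to 14369 bases, so the reads behind the KO-labelled liver value lie anywhere between 1 and 74, and with the fewest reads none of the 9 steps between neighbours exceeded counting error, against 5 with the most reads.

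*Tet2* (chr3:133463679-133545139, minus strand) was highest in *Dnmt3a* KO 2i-MEFs, at 4.37 FPKM, followed by KO-labelled MEFs with DMSO, at 3.90 FPKM, and *Dnmt3b* KO 2i-MEFs, at 2.87 FPKM. WT MEFs gave 1.09 FPKM with DMSO and 1.81 FPKM with GSK126, and KO-labelled MEFs with GSK126 gave 1.55 FPKM. The tissues were at 0.631 FPKM in WT heart, 1.91 FPKM in KO-labelled heart, 1.48 FPKM in WT liver and 1.12 FPKM in KO-labelled liver. All 4 tissue values were below both 2i-MEF values, but the step from 2.87 to 1.91 FPKM lay within counting error on the fewest reads. The share of all genes with this order was not counted. With the fewest reads none of the 9 steps between neighbours exceeded counting error for *Tet2*, and with the most reads 4 did. *Tet2* shares 43 exonic bases with *Gm42567* on the opposite strand.

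*Tet3* (chr6:83362373-83459084, minus strand) had the smallest fold range, 1.96-fold, among the genes listed above 0 in every library. Its level was 8.39 FPKM in *Dnmt3a* KO 2i-MEFs and 5.68 FPKM in *Dnmt3b* KO 2i-MEFs. WT MEFs gave 5.001 FPKM with DMSO and 5.18 FPKM with GSK126, and KO-labelled MEFs 6.32 and 4.32 FPKM. It was at 6.40 and 6.60 FPKM in the hearts, 6.89 FPKM in WT liver and 4.29 FPKM in KO-labelled liver. *Tet3* was the highest TET gene in every library and made up between 53.3% and 76.4% of the summed TET FPKM. *Tet1* made up 39.6% and 24.5% of this sum in the hearts and 7.44% and 3.62% in the livers, and *Tet2* between 5.42% in WT heart and 32.8% in KO-labelled MEFs with DMSO.

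*Tdg* (chr10:82629828-82650799, plus strand), the glycosylase that completes the TET route, was high in both tissues. It was at 43.0 FPKM in WT heart, 38.5 FPKM in KO-labelled heart, 40.7 FPKM in WT liver and 42.7 FPKM in KO-labelled liver. *Dnmt3a* KO 2i-MEFs gave 21.9 FPKM and *Dnmt3b* KO 2i-MEFs 27.6 FPKM. WT MEFs gave 13.7 FPKM with DMSO and 10.7 FPKM with GSK126, and KO-labelled MEFs 17.3 and 13.6 FPKM. The order was tissue above 2i-MEFs above MEFs with no overlap between these groups. Tissues and fibroblasts did not overlap in 33.2% of expressed genes, and 2i-MEFs and MEFs in 45.1%. The share of genes in this full order was not counted. The step between 2i-MEFs and MEFs lay within counting error on the fewest reads. With the fewest reads 7 of the 9 steps of *Tdg* between neighbouring levels lay within counting error, and with the most reads 3 did. *Tdg* shares 367 exonic bases with *Glt8d2* on the opposite strand.

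**Figure D3:**
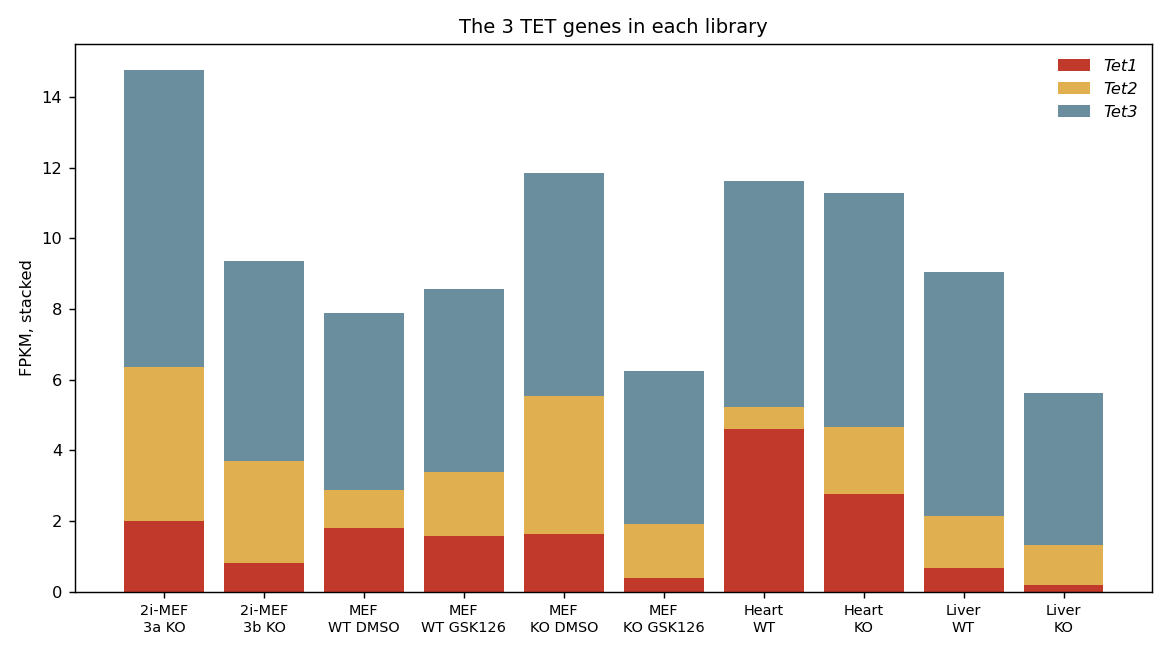
Stacked FPKM of *Tet1*, *Tet2* and *Tet3* (vertical axis, linear, from 0) in each of the 10 libraries, KO for libraries labelled *Dnmt3a* KO where not 2i-MEF. *Tet3* is the largest segment in every library, and the *Tet1* segment is largest in both hearts.

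The comparison of *Dnmt3a* KO with *Dnmt3b* KO 2i-MEFs asks how the loss of either de novo enzyme differs. *Dnmt3a* was the only 1 of the 10 genes at least 2-fold apart, lower by 5.68-fold in *Dnmt3a* KO, with a log2 ratio of -2.26 and a counting interval of the FPKM ratio from 0.0850 to 0.327. Over all genes 2.34% were apart by this measure, or 9.01% of the 13605 genes at 1 FPKM or more in either library. *Dnmt3b* was 2.21-fold higher in *Dnmt3a* KO on the FPKM scale, with an interval from 1.38 to 3.60, but with FPKM + 1 its log2 ratio was 0.63. *Dnmt1* was close in both, with a log2 ratio of 0.06, and the 3 TET genes were higher in *Dnmt3a* KO with log2 ratios between 0.47 and 0.72, all within counting error on the fewest reads. The median over the 10 genes was 0.18, beside 0.03 over the expressed genes.

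For the comparison of libraries labelled *Dnmt3a* KO with WT, *Dnmt3a* itself was 2-fold apart in all 4 pairs, and of the other 9 genes only *Tet2* was, in 1 pair. In MEFs with DMSO 2 of the 10 genes were apart, where 1.63% of all genes and 6.26% of expressed genes were. These were *Dnmt3a*, with a log2 ratio of 1.68, and *Tet2*, with a log2 ratio of 1.23 and an FPKM ratio of 3.58 with a counting interval from 1.31 to 15.4. With GSK126 *Dnmt3a* alone was apart, at a log2 ratio of 2.07, where 1.51% of all genes and 5.83% of expressed genes were, and *Tet2* was at -0.14. In heart *Dnmt3a* alone was apart, at 1.17, where 1.06% of all genes and 4.04% of expressed genes were. *Tet2* was again higher in KO-labelled heart, at 0.84, with an FPKM ratio whose interval ran from 0.655 to 17.2. In liver *Dnmt3a* alone was apart, at -1.99, where 0.932% of all genes and 3.68% of expressed genes were. *Tet2* was at -0.22 there. *Tet3* was at -0.58 in liver, with an FPKM ratio of 0.623 and an interval from 0.366 to 0.970.

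*Dnmt1* and *Tet1* were lower in the KO-labelled library in all 4 of these pairs, by less than 2-fold in FPKM + 1. *Dnmt1* had log2 ratios of -0.33 in MEFs with DMSO, -0.56 in MEFs with GSK126, -0.21 in heart and -0.44 in liver, each with a counting interval below 1. *Tet1* had log2 ratios of -0.08, -0.90, -0.58 and -0.47 in the same order, each within counting error on the fewest reads. Its FPKM ratios were 0.240 in MEFs with GSK126 and 0.302 in liver, and with TPM the log2 ratio in MEFs with GSK126 passed 2-fold, at -1.07. Of the 10 genes 9 reached 1 FPKM in any of these libraries, and 2 of them were thus lower in all 4 pairs, where 8.26% of the 16353 genes that reached it were. These directions rest on the labels, and *Dnmt3a* was higher under the KO label in MEFs and heart. The 2 MEF pairs share their genotypes, and the heart and liver pairs share embryo numbers, so these are not 4 independent comparisons. Germ cell markers, 6 genes at low levels, summed higher under the KO label in all 4 pairs. None of the 6 was 2-fold apart in FPKM + 1. The sums were 2.14 against 0.912 FPKM in MEFs with DMSO and 2.35 against 1.11 FPKM with GSK126. In heart they were 2.51 against 0.464 FPKM and in liver 0.658 against 0.284 FPKM. The medians of these 6 genes were lower under the KO label in MEFs with DMSO, at 0.0676 against 0.0770 FPKM, and in liver, at 0.0286 against 0.0442 FPKM. The medians were higher with GSK126, at 0.224 against 0.0800 FPKM, and in heart, at 0.276 against 0.00962 FPKM. The paper reports lower methylation at the *Hoxb* genes in *Dnmt3a* KO heart and liver, from methylation libraries, and raised *Pax8* in *Dnmt3a* KO MEFs. Whether labels were exchanged was not tested. *Uhrf1* was at -0.44 and -0.29 in MEFs and at 0.07 and -0.06 in heart and liver. *Uhrf2* was at 0.08 and 0.17 in MEFs and at -0.56 in heart and -0.14 in liver. Proliferation markers had median log2 ratios of -0.16 and -0.27 in the MEF pairs, -0.04 in heart and -0.01 in liver. Fibroblast markers summed to 12204 and 9550 FPKM in WT and KO-labelled MEFs with DMSO and to 9182 and 6233 FPKM with GSK126, and macrophage markers to 282 and 186 FPKM and to 265 and 202 FPKM. In liver, hepatocyte markers summed to 18847 FPKM in WT and 11630 FPKM in the KO-labelled library, with medians of 878 and 745 FPKM, and erythroid markers to 52527 and 65511 FPKM. Fibroblast markers summed there to 546 and 298 FPKM, macrophage markers to 77.1 and 54.4 FPKM, and cardiomyocyte markers to 94.4 and 20.4 FPKM, and their part in these ratios was not tested.

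**Figure D4:**
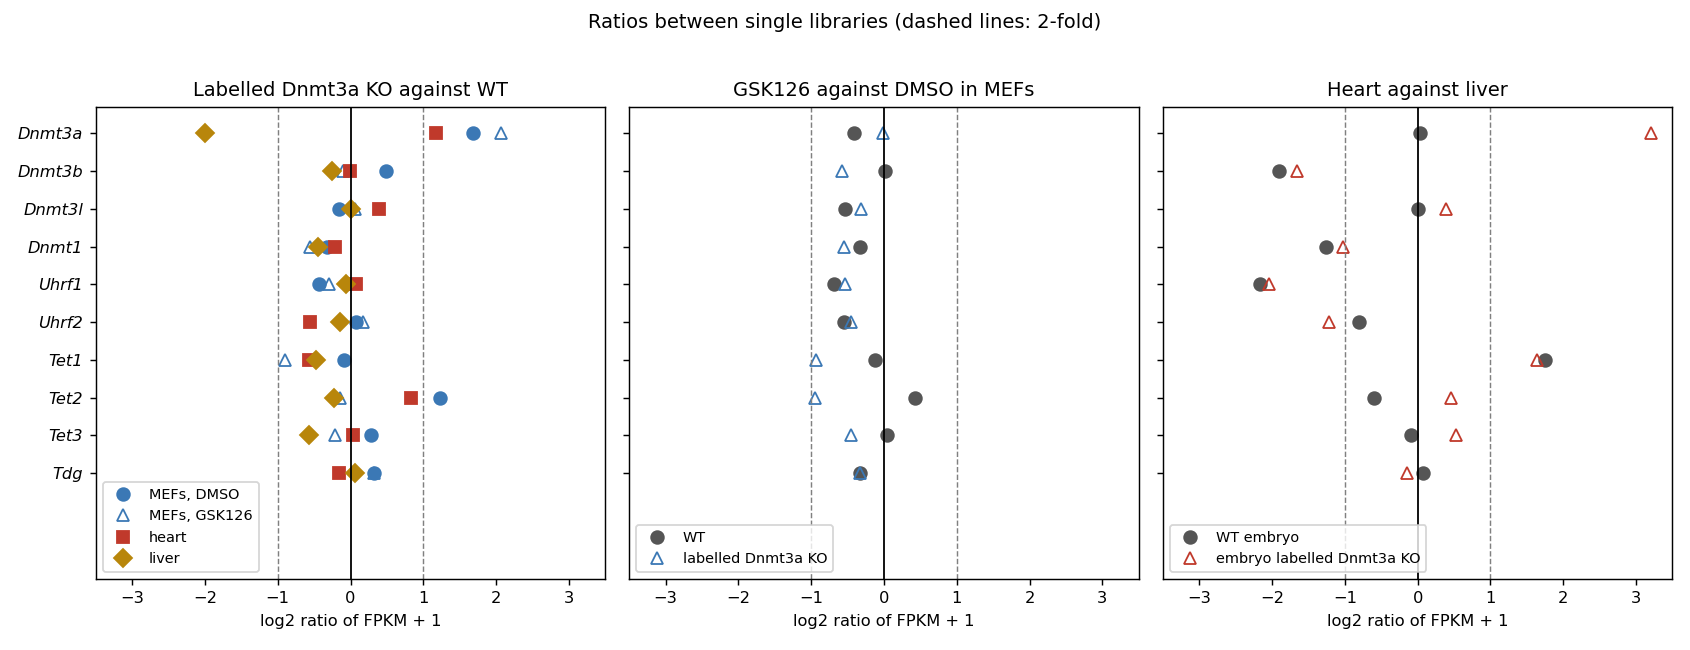
Log2 ratio of FPKM + 1 of each gene (rows) between single libraries. Left, labelled *Dnmt3a* KO against WT in MEFs with DMSO or GSK126, heart and liver; middle, GSK126 against DMSO in WT and KO-labelled MEFs; right, heart against liver in both embryos. Dashed lines mark 2-fold. *Dnmt3a* runs from -1.99 to 2.07 on the left, every gene stays inside 2-fold in the middle, and *Dnmt3b*, *Dnmt1* and *Uhrf1* lie below -1 in both embryos on the right.

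With GSK126 none of the 10 genes was 2-fold apart from DMSO in either MEF genotype by FPKM + 1. With TPM, *Tet1* and *Tet2* passed 2-fold in the KO-labelled MEFs, at log2 ratios of -1.16 and -1.08, and with a pseudocount of 0.1 in place of 1 the number apart there was 4. Of expressed genes 6.73% were apart there with TPM and 9.63% with the smaller pseudocount. With FPKM + 1 the background was 0.967% of all genes and 3.76% of expressed genes in WT and 1.37% and 5.26% in KO-labelled MEFs. Without regard to size, 7 genes were lower with GSK126 in WT and all 10 were lower in the KO-labelled MEFs, as were 49.6% and 54.7% of expressed genes. Of the 8 genes that reached 1 FPKM in any of these 4 libraries, 6 were lower in both, namely *Dnmt1*, *Uhrf1*, *Uhrf2*, *Dnmt3a*, *Tet1* and *Tdg*, where 29.4% of the 14223 genes that reached it were. *Dnmt3l*, which did not reach it, was lower in both as well. Over the 10 genes the log2 ratios had a median of -0.33 in WT and -0.50 in the KO-labelled MEFs, beside 0.00 and -0.04 over the expressed genes.

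*Uhrf1*, *Dnmt1* and *Uhrf2* were lower with GSK126 in both genotypes by more than counting error. The share of all genes lower by more than counting error was not counted. *Uhrf1* had log2 ratios of -0.68 in WT and -0.54 in KO-labelled MEFs, *Dnmt1* of -0.33 and -0.56, and *Uhrf2* of -0.55 and -0.46, and all 6 counting intervals lay below 1. *Tdg* was at -0.33 in both genotypes. *Dnmt3a* was at -0.41 in WT and at -0.02 in KO-labelled MEFs. The lowest ratios on the FPKM scale were at genes with low levels. *Dnmt3l* had an FPKM ratio of 0.106 in WT, with an interval from 0.00235 to 0.745, and of 0.276 in KO-labelled MEFs, with an interval from 0.0283 to 1.30. *Tet1* had the lowest FPKM ratio in the KO-labelled MEFs, 0.230, with an interval from 0.00384 to 1.35 on the fewest reads and from 0.187 to 0.282 on the most. *Dnmt3b* and *Tet2* were lower with GSK126 in the KO-labelled MEFs, with FPKM ratios of 0.326 and 0.397 and intervals from 0.197 to 0.524 and from 0.139 to 0.934. In WT the ratios of *Dnmt3b* and *Tet2* were 1.03 and 1.66, and that of *Tet1* was 0.874. The proliferation markers were lower with GSK126 as well, with medians of -0.55 and -0.66, but only *Ccnb1* of the 14 was 2-fold apart, in both genotypes. Fibroblast markers had medians of -0.14 in WT, where none of the 9 was 2-fold apart, and -0.42 in the KO-labelled MEFs, where *Col3a1* and *Postn* were 2-fold lower. Each genotype has 1 treated library, and the part of proliferation or of the fibroblast markers in these values was not tested.

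*Dnmt1*, *Uhrf1* and *Dnmt3b* were at least 2-fold lower in heart than in liver in both embryos, and *Tet1* was at least 2-fold higher. Of the 15146 genes at 1 FPKM or more in any of these 4 libraries, 15.4% were 2-fold lower and 17.0% were 2-fold higher in both embryos. In the WT embryo 4 of the 10 genes were 2-fold apart, where 11.6% of all genes and 41.6% of expressed genes were, so the number itself is near the background of expressed genes. In the KO-labelled embryo 6 were apart, where 12.1% of all genes and 43.7% of expressed genes were. *Uhrf1* was lower in heart with log2 ratios of -2.17 in WT and -2.04 in the KO-labelled embryo, *Dnmt3b* with -1.91 and -1.65, and *Dnmt1* with -1.25 and -1.02. *Tet1* was higher in heart with log2 ratios of 1.74 and 1.64, and its FPKM ratios of 6.84 and 13.6 had counting intervals from 1.80 to 35.0 and from 1.5 to 528. *Uhrf2* was lower in heart in both, at -0.80 and -1.22, and *Dnmt3a* differed between embryos, at 0.04 in WT and 3.20 in the KO-labelled embryo. *Tet2* was at -0.60 and 0.46, and *Tet3* and *Tdg* had log2 ratios between -0.15 and 0.52. In each embryo 13 of the 14 proliferation markers were 2-fold lower in heart, the exception being *Cdk1*, and 7 of the 8 erythroid markers were lower and *Hbb-y* was higher. The part of these cells in the ratios was not tested. The median of genes at 1 FPKM or more in both tissues was itself at -0.13 in the WT embryo, and with TPM scaling *Dnmt1* in the KO-labelled embryo was less than 2-fold apart, at -0.83.

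Across cell types, *Dnmt1*, *Uhrf1* and *Tdg* were higher in all 4 tissue libraries than in all 6 fibroblast libraries, and none of the 10 genes was lower in all tissue libraries. Such separation was seen in 11.4% of all genes and in 33.2% of the 16896 genes at 1 FPKM or more in any library, and the libraries of a kind differ in genotype or treatment. The medians of the tissues were 2.98-fold those of the fibroblasts for *Dnmt1*, 8.50-fold for *Uhrf1* and 2.69-fold for *Tdg*. Between the fibroblasts, *Uhrf2* and *Tdg* were higher in both 2i-MEF libraries than in the 4 MEF libraries, although the separating step of *Tdg* lay within counting error on the fewest reads. *Dnmt3l* was listed at 0 in both, but its step to the lowest MEF value lay within counting error. In this comparison 15.7% of all genes and 45.1% of expressed genes did not overlap. Without the GSK126 libraries *Dnmt1* and *Dnmt3a* were also lower in both 2i-MEF libraries than in the MEFs, where 20.9% of all genes and 56.6% of expressed genes did not overlap, and the separating step of *Dnmt3a* lay within counting error on the fewest reads. 2i-MEFs and MEFs differ in strain, sex, origin, selection and sorting, and macrophage markers at once, and these cannot be told apart.

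The genes with the most similar profile over the 10 libraries were sought for the 5 of the 10 genes whose level spans at least 4-fold in FPKM + 1 (2 on the log2 scale). Likeness was the mean absolute difference of the log2 levels after each gene was centered on its own mean, over 10174 genes whose mean was 5 FPKM or more. Nearest to *Uhrf1* were *Mcm3*, a subunit of the replicative helicase, at 0.14, *Shmt1* at 0.15 and *Syce2* at 0.16. Among the nearest to *Dnmt1* were *Haus4* and *Mad2l1*, a spindle checkpoint gene, at 0.15 each. Nearest to *Dnmt3b* were *Nup107*, *Srsf2* and *Orc6*, also at 0.15 each, and nearest to *Tet1* were *Efna1* at 0.16, *Svil* at 0.19 and *Atat1* at 0.22. In FPKM *Dnmt3b* spanned 23.3-fold and *Tet1* 22.6-fold. The added 1 FPKM narrows genes at low levels, so the genes nearest to them need not share these ranges. No gene came close to *Dnmt3a*, for which the nearest was *Zim1* at 0.63. Within the 10 genes, the closest pair was *Dnmt3l* and *Tet3* at 0.29, the genes that vary least on this scale. *Dnmt1* was at 0.38 from *Dnmt3b* and at 0.52 from *Uhrf1*, and *Dnmt3a* was at least 1.10 from every other gene. These distances describe 10 libraries that share tissues and embryos and carry no test.

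Of 41 other genes of DNA methylation, most stayed within 2-fold outside the comparison of heart and liver. None was apart between the 2i-MEFs, between KO-labelled and WT MEFs with GSK126, with GSK126 in WT MEFs, or between the hearts. *Gadd45b*, a stress-response gene linked to demethylation, was at 43.7 FPKM in KO-labelled MEFs with DMSO, above the 10.5 FPKM of WT MEFs with DMSO and the 13.3 FPKM of KO-labelled MEFs with GSK126. *Zbtb38*, a reader of methylated DNA, was at 7.96 FPKM in KO-labelled liver and 2.07 FPKM in WT liver. Between heart and liver 6 of the 41 were higher and 13 lower in heart in the WT embryo, and 7 and 10 in the KO-labelled embryo. Among expressed genes 41.6% and 43.7% were apart in these comparisons, so the numbers are near the background. Among the 13 partners of maintenance and chromatin, *Pcna*, *Lig1*, *Hells*, *Cdca7* and *Usp7* were lower in heart in both embryos. *Pcna*, the sliding clamp of replication, was at 64.5 FPKM in heart and 240.2 FPKM in liver in WT, and at 59.8 and 303 FPKM in the KO-labelled embryo. *Usp7*, a deubiquitinase that binds UHRF1 and DNMT1, was at 22.7 and 102 FPKM and at 23.3 and 115 FPKM. *Gadd45a* was lower in heart by the most, at 2.73 against 81.8 FPKM and 2.54 against 86.0 FPKM. Higher in heart were *Gadd45b*, *Idh2*, a mitochondrial enzyme that makes the TET cofactor 2-oxoglutarate, and *Zbtb4*, a reader, with log2 ratios of 2.31, 1.98 and 1.88 in WT and 2.54, 2.61 and 2.08 in the KO-labelled embryo. The median over the 41 genes was -0.18 and -0.20, beside -0.09 and 0.00 over the expressed genes.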

How the data were processed

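RNA was sequenced by the authors with a stranded mRNA kit, and reads were mapped to mm10 on the GENCODE M15 annotation. FPKM values were calculated by the authors with Cufflinks 2.2.1 and deposited as 1 table of 52609 rows without read counts; rows of 1 symbol were summed. The 16 methylation samples were not analysed here.

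Depth was estimated from genes with 1 GENCODE M21 transcript of at least 1500 bases. Between 97.9% and 99.1% of values under 10 reads lay within 0.1 of a whole number, where 20% of evenly spread values would. On simulated data the estimate missed by at most 0.00967%. Intervals are exact, at 95%.

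Comparisons used a pseudocount of 1 and a 2-fold threshold. Genes were taken as expressed where any library compared reached 1 FPKM. The genes and all lists were chosen with earlier results of these data known. Other pathway genes were named where 2-fold apart in both pairs of like comparisons, at most 3 per direction; further ones were named after their values were seen. Alternatives were a pseudocount of 0.1, a 1.5-fold threshold, TPM, centring on the median gene, the highest row of a symbol, a filter on low values and leaving out libraries. Starts counted from 0 in the table had 1 added. Python 3.11.15, numpy 2.4.6, pandas 2.3.3, scipy 1.17.1 and matplotlib 3.10.9 were used.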

Additional observations from a re-analysis of the deposited data

Results flagged for a closer look

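The ratio of *Dnmt3a* between libraries labelled *Dnmt3a* KO and WT pointed in opposite directions between tissues. On the log2 scale it was 1.17 in heart and -1.99 in liver, although heart and liver carry the same embryo number within each genotype. It was 1.68 in MEFs with DMSO and 2.07 in MEFs with GSK126. The difference between tissues was not tested, because each condition has 1 library.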

How the results depend on the processing

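With a pseudocount of 0.1 the number of the 10 genes at least 2-fold apart changed from 1 to 3 between the 2i-MEFs, from 1 to 2 between KO-labelled and WT MEFs with GSK126, from 0 to 1 with GSK126 in WT MEFs, from 0 to 4 with GSK126 in KO-labelled MEFs, from 1 to 3 in heart and from 1 to 2 in liver, where 14.3%, 10.5%, 7.08%, 9.63%, 8.01% and 7.13% of expressed genes were apart at this setting. With a 1.5-fold threshold the first 5 of these numbers were 3, 2, 1, 2 and 2, beside 21.4%, 16%, 11.5%, 16.4% and 11.5% of expressed genes. With TPM, 2 genes were apart between KO-labelled and WT MEFs with GSK126 (*Dnmt3a* and *Tet1*) and 2 with GSK126 in KO-labelled MEFs (*Tet1* and *Tet2*), beside 6.98% and 6.73% of expressed genes. Without the GSK126 libraries, 5 genes in place of 3 did not overlap between 2i-MEFs and MEFs, where 56.6% in place of 45.1% of expressed genes did not. The genes added by the smaller pseudocount were *Dnmt3b*, *Dnmt3l*, *Tet1* and *Tet2*, all at low levels. Of 360 recomputed ratios of single genes none changed direction past the threshold, 17 came to pass 2-fold, and 2 fell under it, both of *Dnmt1* between heart and liver of the KO-labelled embryo, at -0.83 with TPM and -0.96 after centring. The remaining 45 of 59 recomputed numbers of genes stayed within 1.5 times. No paired test was run. Heart and liver share an embryo number within each genotype, and their ratios are given within each embryo. Depth limits *Dnmt3l*, and the unknown transcript lengths decide whether some steps exceed counting error for *Tet1*, *Tet2*, *Tet3*, *Uhrf1*, *Tdg* and *Dnmt3a*.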
